A study of Mus musculus with 8 samples.

Results

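Aqp5, Celsr2, Odf2, Myrip and Ryk are 5 genes reported as direct targets of miR-96, a microRNA of sensory hair cells. They were followed here through the organ of Corti of mice in which Dicer1, needed to make mature microRNAs, was floxed for deletion in hair cells. The 5 genes were taken by symbol from the table of array signals, where they make up 5 of the 18193 genes with a probe set of their own and 12 of the 34945 probe sets annotated to a single gene. All 5 genes passed the filter on low signals. Of their 12 probe sets, 11 passed it, the exception being the dimmest of the 5 for Odf2.

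Tissue came from mice of the cross Dicer1tm1Bdh X Tg(Atoh1-cre)1Bfri at postnatal day 16. The organ of Corti, which holds the hair cells of the cochlea, was split into apical and basal portions. All mice carried Atoh1-Cre, a transgene whose regulatory sequence is active in developing hair cells. Conditional knockouts (cKO) were Atoh1-Cre;Dicer1(flox/flox), with 2 floxed Dicer1 alleles, and the littermate controls were Atoh1-Cre;Dicer1(flox/wt), with 1 floxed allele, so that no group was free of Cre or of a floxed allele. Each of the 4 groups (control apex, cKO apex, control base, cKO base) held 2 samples, and a sample pooled the same part of both cochleae of 1 mouse. Samples of 1 genotype and replicate number were taken to come from the same animal, which gives 4 presumed mice and 8 arrays. The tissue was not sorted, so hair cells were measured together with supporting cells, fibrocytes, nerve and other tissue. In such bulk samples, fewer cells of a type and less RNA per cell cannot be told apart.

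A microRNA guides an Argonaute protein to messenger RNAs whose 3′ untranslated region pairs with its seed, which lowers the stability and translation of the message. miR-96 is processed with miR-182 and miR-183 from neighbouring hairpins, and all 3 are abundant in hair cells and other sensory cells. Changes in the miR-96 seed cause progressive hearing loss in mice and people. Dicer1 cuts the hairpin precursors into mature microRNAs, so the comparison asks whether messages of reported miR-96 targets are higher where Dicer1 has been removed.

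The mature sequences below, from RefSeq on GRCm38.p6 and written 5′ to 3′, show miR-96, which the 5 messages are reported to pair with, beside its relatives. Capitals mark the seed, bases 2 to 8. The first 3 belong to the miR-183 cluster, and the fourth is the other entry, among 1738 mature mouse microRNAs, with the seed of miR-96.
miR-96-5p: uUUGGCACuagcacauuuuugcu
miR-182-5p: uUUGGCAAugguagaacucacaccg
miR-183-5p: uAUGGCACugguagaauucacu
miR-1271-5p: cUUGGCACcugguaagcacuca

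Counted from the 5′ end of miR-96, the seed of miR-182 differs by C8A and that of miR-183 by U2A, so each shares 6 of 7 seed bases with miR-96. A message that pairs with the whole miR-96 seed carries GTGCCAA. The matching letters for miR-182 are TTGCCAA, and those for miR-183 are GTGCCAT. miR-96-5p lies at chr6:30169506-30169528, miR-182-5p at chr6:30165962-30165986 and miR-183-5p at chr6:30169711-30169732, all on the minus strand, and the 3 hairpins fall within 3820 bases. miR-1271-5p lies at chr13:54578152-54578173 on the plus strand. Target sites in the 5 messages and the levels of the microRNAs themselves were not analysed here.

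None of the 5 genes passed the threshold of 0.05 (limma, Benjamini-Hochberg adjustment over 13221 genes) between cKO and control, in the apex, in the base or over both, and 1 of them, Celsr2, had an unadjusted p under 0.05 in the apex. Celsr2 gave the clearest difference, 1.67-fold higher in the cKO apex than in the control apex on its brightest probe set, without a like difference in the base. Odf2 was 1.23-fold higher in the cKO apex, and its samples did not overlap there. Aqp5, Myrip and Ryk differed between genotypes by less than the spread of their replicates. Of all 13221 genes, 0% passed in each of these comparisons and in the difference of the effect between regions. At an unadjusted p under 0.05 there were 290 genes in the apex, 413 in the base, 319 over both and 149 for the difference.

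Dicer1 itself, the targeted gene, showed no difference beyond the spread of replicates. Its brighter probe set read log2 signals of 9.57 and 9.19 in the control apex, 9.41 and 9.17 in the cKO apex, 9.36 and 9.04 in the control base and 9.30 and 9.06 in the cKO base. The genotypes overlapped in both regions, and the cKO minus control value was -0.09 ± 0.22 (log2 with SE) for the apex and -0.02 ± 0.22 for the base. The second probe set ran from 7.55 to 8.42 in controls and from 6.99 to 7.91 in cKO. Where these probe sets lie relative to the floxed exon was not analysed here, and cells in which Cre does not act keep their Dicer1 message, so these values are no check of the deletion.

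The signals were intensities that the authors scaled to a trimmed mean of 500 on each array, with a median of 67.0 to 100.1. The number of arrays limits the precision. Hair cell, supporting cell and fibrocyte markers were present in all samples, whereas Slc26a5, the motor protein of outer hair cells, stayed between 1.41 and 5.31 (log2) and under the filter in its mean. Tectb, an apical gene of the tectorial membrane, was at 12.52 to 13.48 in the 4 apical samples and at 5.71 to 8.71 in the 4 basal ones. Control mouse 1 had Xist at 12.54 and 12.39 in apex and base and the others at 6.28 to 8.23, so control replicate 1 was female and the other 3 presumed mice were not. Dct, a melanocyte gene of the stria vascularis, was at 5.96 in control base replicate 1 and at 13.65 to 13.91 in the other 3 basal samples.

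Celsr2 and Ryk are cell surface receptors of the polarity and Wnt pathways. Celsr2 (Entrez 53883, chr3:108390848-108416069, GRCm38.p6) encodes a flamingo cadherin that works with frizzled receptors in planar cell polarity, the alignment of hair bundles across the epithelium. Its brighter probe set (1435336_at) gave signals of 458 and 512 in the control apex, 859 and 763 in the cKO apex, 739.9 and 771 in the control base and 653 and 682 in the cKO base. Both apical controls were therefore the lowest of all 8 samples, and the 2 genotypes did not overlap in either region, with the cKO above the control in the apex and below it in the base.

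On the log2 scale the Celsr2 group means were 8.92 ± 0.11 in the control apex, 9.66 ± 0.12 in the cKO apex, 9.56 ± 0.04 in the control base and 9.38 ± 0.04 in the cKO base (SD, n = 2 each), so the order from low to high was control apex, cKO base, control base and cKO apex. The apical difference of 0.74 ± 0.17 (log2, SE), or 1.67-fold with a 95% interval of 1.27 to 2.20, had an unadjusted p of 0.00277 and an adjusted p of 1 (limma). In the base the difference was -0.18 ± 0.17 (limma, unadjusted p = 0.326), with an interval from 0.672-fold to 1.16-fold. The genotype effect itself differed between regions by -0.92 ± 0.24 (base minus apex, unadjusted p = 0.00563, adjusted p = 1). Over both regions, counted as 4 presumed mice, Celsr2 was higher in cKO by 0.28 ± 0.15 (unadjusted p = 0.11, adjusted p = 0.999).

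Celsr2 was the only member with an unadjusted p under 0.05 in the apex, where 2.19% of all genes had one, and in the difference between regions, where 1.13% had one. No member had one in the base, against 3.12% of all genes, or over both regions, against 2.41%. Both cKO samples lay above both controls in the apex for Celsr2 and Odf2, 2 of 5 members, against 15.0% of all genes. In the base this held for 0 of 5 members against 13.1% of all genes, and both cKO samples lay below both controls for Celsr2 alone, 1 of 5, against 15.6%. With 5 members, these counts are too small to set the genes apart from others.

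**Figure D1:**
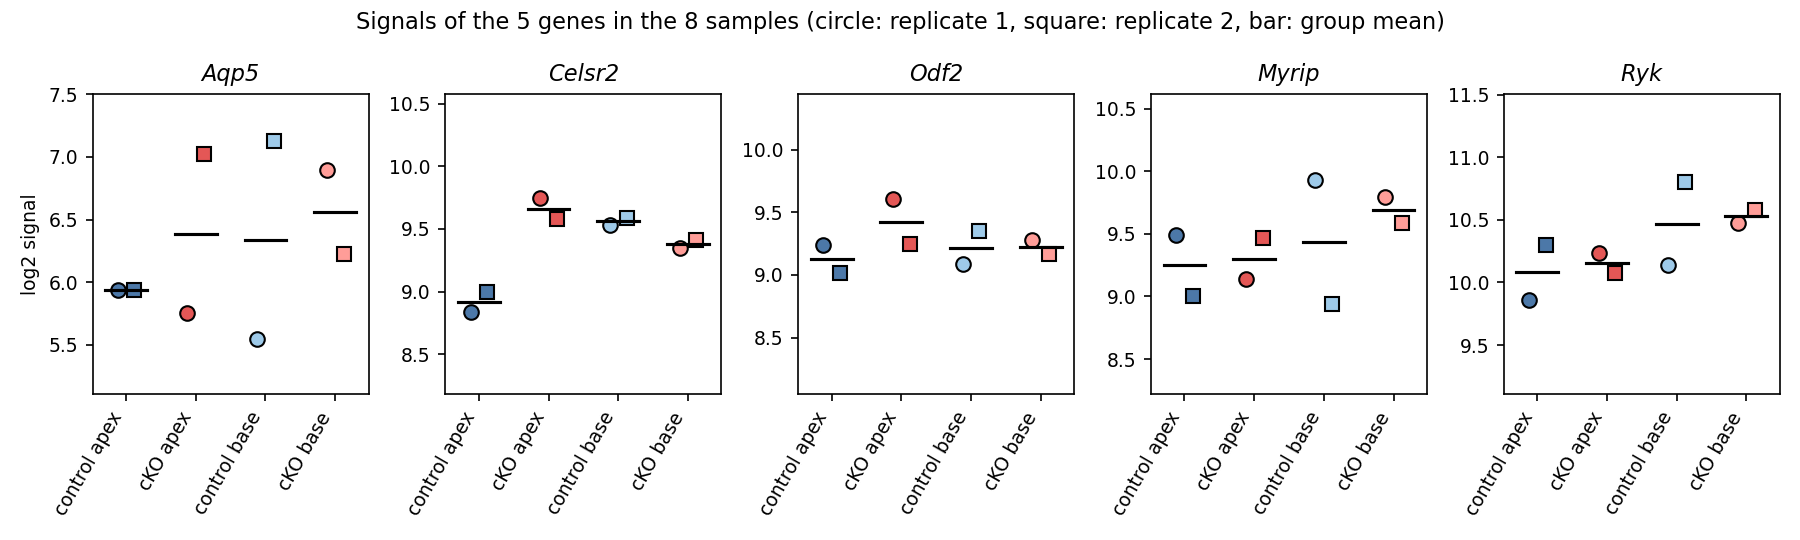
Log2 signal of the brightest probe set of Aqp5, Celsr2, Odf2, Myrip and Ryk in each of the 8 samples (y axis, log2 of the deposited intensity; x axis, the 4 groups; circles, replicate 1; squares, replicate 2; bars, means of 2 samples; each panel has its own range). The 2 apical controls of Celsr2 lie below its other 6 samples, whereas the genotypes overlap in both regions for Aqp5, Myrip and Ryk.

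The second Celsr2 probe set (1422073_a_at) did not show the apical difference. Its signals were 124 and 209.7 in the control apex, 163 and 209 in the cKO apex, 145 and 209.7 in the control base and 159 and 245 in the cKO base. Replicate 2 was above replicate 1 in every group, and the genotypes overlapped in both regions. The cKO effect by this probe set was 0.19 ± 0.37 in the apex and 0.18 ± 0.37 in the base. The probe sets correlated at r = 0.30 over the 8 samples, given as a description, and the cause of their disagreement was not tested.

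Both apical controls were below the other 6 samples for Celsr2, as for 2.86% of all genes, and for the summed signal of the fibrocyte and mesenchyme list, 1 of 9 cell type lists. All 8 of its 8 genes were measured, and their summed signal was 80969 and 77248 in the control apex, 94643 and 92360 in the cKO apex, 85622 and 97040 in the control base and 113088 and 97629 in the cKO base. In the apex, 8 of 8 genes of that list were above 0 (median 0.21, range 0.14 to 0.30), and none had an unadjusted p under 0.05. Otor, a secreted protein of spiral ligament fibrocytes, differed by 0.30 ± 0.13, and Coch, the extracellular protein cochlin of the same cells, by 0.27 ± 0.16. In the base the fibrocyte sum was also higher in cKO, whereas Celsr2 was lower. The part of this tissue in the Celsr2 values was not tested.

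**Figure D2:**
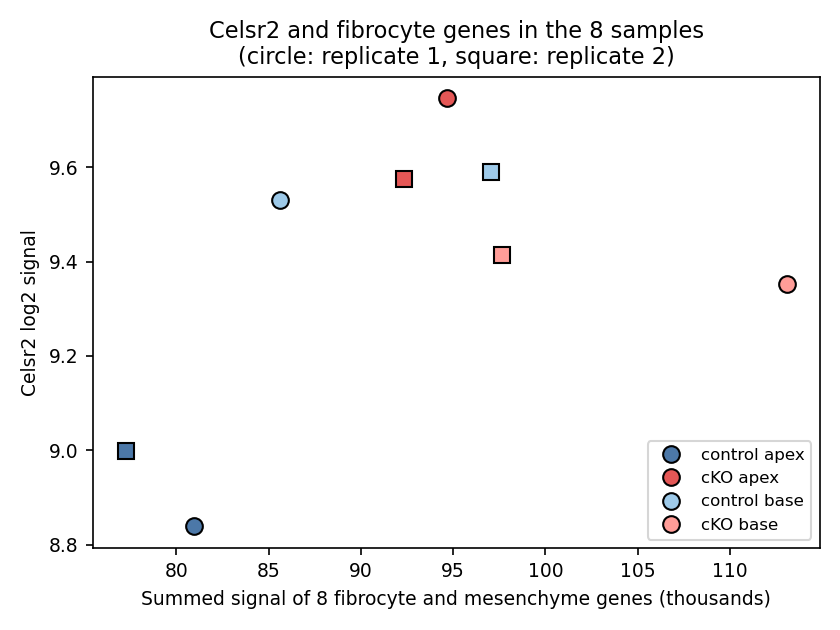
Celsr2 log2 signal (y axis, brightest probe set) against the summed signal of 8 fibrocyte and mesenchyme markers (x axis, linear) in the 8 samples; colour gives the group, circles replicate 1 and squares replicate 2. The 2 apical controls are the lowest on both axes, and the 2 cKO base samples are highest on the x axis with mid-range Celsr2.

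Ryk (Entrez 20187, chr9:102834920-102908307) encodes a receptor with an inactive kinase domain that binds Wnt ligands such as Wnt5a. It was the brightest of the 5 genes, although signals of different probe sets cannot be ranked as RNA levels. Its brightest probe set (1451789_a_at) gave signals of 931 and 1259 in the control apex, 1208.5 and 1076 in the cKO apex, 1126 and 1784 in the control base and 1424 and 1531 in the cKO base. The controls enclosed both cKO samples in each region. Group means were 10.08 ± 0.31 in the control apex, 10.16 ± 0.12 in the cKO apex, 10.47 ± 0.47 in the control base and 10.53 ± 0.07 in the cKO base (log2, SD). By limma the difference was 0.08 ± 0.26 (log2 with SE; unadjusted p = 0.776) for the apex and 0.06 ± 0.26 (unadjusted p = 0.824) for the base, and the intervals ran from 0.697-fold to 1.59-fold and from 0.689-fold to 1.58-fold. Without control apex replicate 1 the apical value became -0.14, and without control base replicate 1 the basal value became -0.27.

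The other Ryk probe sets behaved differently from the first and from each other. The second (1426388_s_at) gave 755 and 759 in the control apex, 704 and 641 in the cKO apex, 788 and 901 in the control base and 945 and 1031 in the cKO base. All 4 basal samples were above all 4 apical ones, as in 5.19% of 23332 tested probe sets. Its cKO samples were below the controls in the apex (-0.17 ± 0.17) and above them in the base (0.23 ± 0.17), and these effects differed by 0.40 ± 0.24 (unadjusted p = 0.138, adjusted p = 1).

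The third Ryk probe set (1447400_at) was dim, at 117 and 102 in the control apex, 148 and 171 in the cKO apex, 86.4 and 113 in the control base and 169 and 129 in the cKO base. All 4 cKO samples lay above all 4 controls, which 1 of the 11 tested member probe sets and 1.39% of all tested probe sets did. By limma the difference was 0.54 ± 0.29 in the apex (unadjusted p = 0.0973), 0.57 ± 0.29 in the base (unadjusted p = 0.0829) and 0.56 ± 0.21 over both (unadjusted p = 0.0462, adjusted p = 0.999). It correlated with the first probe set at r = 0.04 and with the second at -0.09, whereas those correlated with each other at 0.73. Whether this dim probe set reads another part of the message or other sequence was not tested.

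Of 16 planar cell polarity partners of Celsr2 and Ryk, 14 were tested and none had an unadjusted p under 0.05. In the apex 8 were above 0 and 6 below (median 0.07), and in the base 11 were above and 3 below (median 0.15), beside medians near 0 over all genes. The 3 of smallest p each had a negative value in the apex and a positive one in the base. Prickle2, a cytoplasmic polarity protein, was at -0.22 ± 0.17 and 0.28 ± 0.17. Ror1, a Wnt5a receptor, was at -0.35 ± 0.38 and 0.62 ± 0.38. Dvl1, a dishevelled adaptor downstream of frizzled, was at -0.14 ± 0.21 and 0.30 ± 0.21. Celsr1, a relative of Celsr2, was at 0.36 ± 0.49 and -0.32 ± 0.49, and Scrib, a scaffold of cell polarity, at 0.08 ± 0.20 and -0.02 ± 0.20. Both had the signs of the brightest Celsr2 probe set and were chosen after values were seen. Celsr3, another relative of Celsr2, was above 0 in both regions, at 0.33 ± 0.60 and 0.14 ± 0.60.

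Myrip (Entrez 245049, chr9:120303520-120476101) encodes a protein that links the vesicle GTPase Rab27a to myosin VIIa, the unconventional myosin of hair bundles. Its single probe set (1460601_at) gave signals of 720.2 and 513 in the control apex, 565 and 706 in the cKO apex, 978 and 491 in the control base and 888 and 770.5 in the cKO base. The highest and lowest of the 8 samples were the 2 basal controls, 1.99-fold apart, and both cKO samples of each region lay between its controls. Group means were 9.25 ± 0.35 in the control apex, 9.30 ± 0.23 in the cKO apex, 9.44 ± 0.70 in the control base and 9.69 ± 0.15 in the cKO base (log2, SD). Neighbouring means in this order differed by less than the larger SD of the pair. By limma the difference was 0.06 ± 0.34 in the apex (unadjusted p = 0.876) and 0.26 ± 0.34 in the base (unadjusted p = 0.475), with intervals from 0.598-fold to 1.81-fold and from 0.688-fold to 2.08-fold. Without control apex replicate 2 the apical value was -0.19, and without control base replicate 2 the basal value was -0.24.

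The summed signal of the 8 neuron markers, all 8 measured, was also highest and lowest in the basal controls, at 59344 in replicate 1 and 19727 in replicate 2. It was 46760 and 31032 in the cKO base, 52809 and 42840 in the control apex and 45682 and 44933 in the cKO apex. The part of nerve tissue in the Myrip values was not tested.

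Among 12 partners and relatives of Myrip, 11 were tested and none had an unadjusted p under 0.05. In the apex and in the base alike, 7 were above 0 and 4 below, with medians of 0.04 and 0.13. Sytl4, a Rab27 effector of secretory granules, was at 0.24 ± 0.30 in the apex and 0.54 ± 0.30 in the base. Prkar2a, a regulatory subunit of protein kinase A, was at 0.23 ± 0.16 and 0.11 ± 0.16. Mlph, which links Rab27a to myosin Va in pigment cells, was at 0.95 ± 0.70 and 0.49 ± 0.70.

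Odf2 (Entrez 18286, chr2:29889014-29931746) encodes a scaffold of the appendages of the mother centriole, from which cilia grow. Its brightest probe set (1454735_at) gave signals of 603 and 517 in the control apex, 779.9 and 607 in the cKO apex, 544 and 652 in the control base and 622 and 574 in the cKO base. In the apex the cKO samples lay just above the controls, at 607 against 603 for the nearest pair, and in the base the controls enclosed them. Group means were 9.13 ± 0.16 in the control apex, 9.22 ± 0.18 in the control base, 9.22 ± 0.08 in the cKO base and 9.43 ± 0.26 in the cKO apex (log2, SD). The apical difference was 0.30 ± 0.21 (unadjusted p = 0.187), or 1.23-fold with an interval of 0.881 to 1.72. It was 0.12 without cKO apex replicate 1, 0.48 without cKO apex replicate 2, 0.19 without control apex replicate 2 and 0.18 as the mean of probe sets. The basal difference was 0.0045 ± 0.21 (limma, unadjusted p = 0.983), or from 0.718-fold to 1.40-fold, and it was -0.13 without control base replicate 1. The 8 samples spanned 1.51-fold, a smaller range than for Celsr2, Myrip, Ryk or Aqp5.

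The 4 other Odf2 probe sets were all much dimmer, between 16.3 and 114. The second (1439918_at) differed between genotypes by 0.20 ± 0.45 in the apex and 0.0025 in the base, and the third (1426040_a_at) by 0.35 ± 0.51 and 0.13 ± 0.51. The fourth (1435216_a_at) gave 43.3 and 42.6 in the control apex, 66.2 and 48.5 in the cKO apex, 55.9 and 67.8 in the control base and 16.3 and 40.4 in the cKO base. Its genotypes did not overlap in either region and went opposite ways, at 0.40 ± 0.52 in the apex and -1.26 ± 0.52 in the base (unadjusted p = 0.0416, adjusted p = 1). Fitted without the filter, the basal interval ran from -2.54 to 0.015 (limma, unadjusted p = 0.0522). The lowest of these signals was under the filter value of 38.7. The fifth (1444101_at) did not pass the filter and ran from 23.9 to 59.1.

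**Figure D3:**
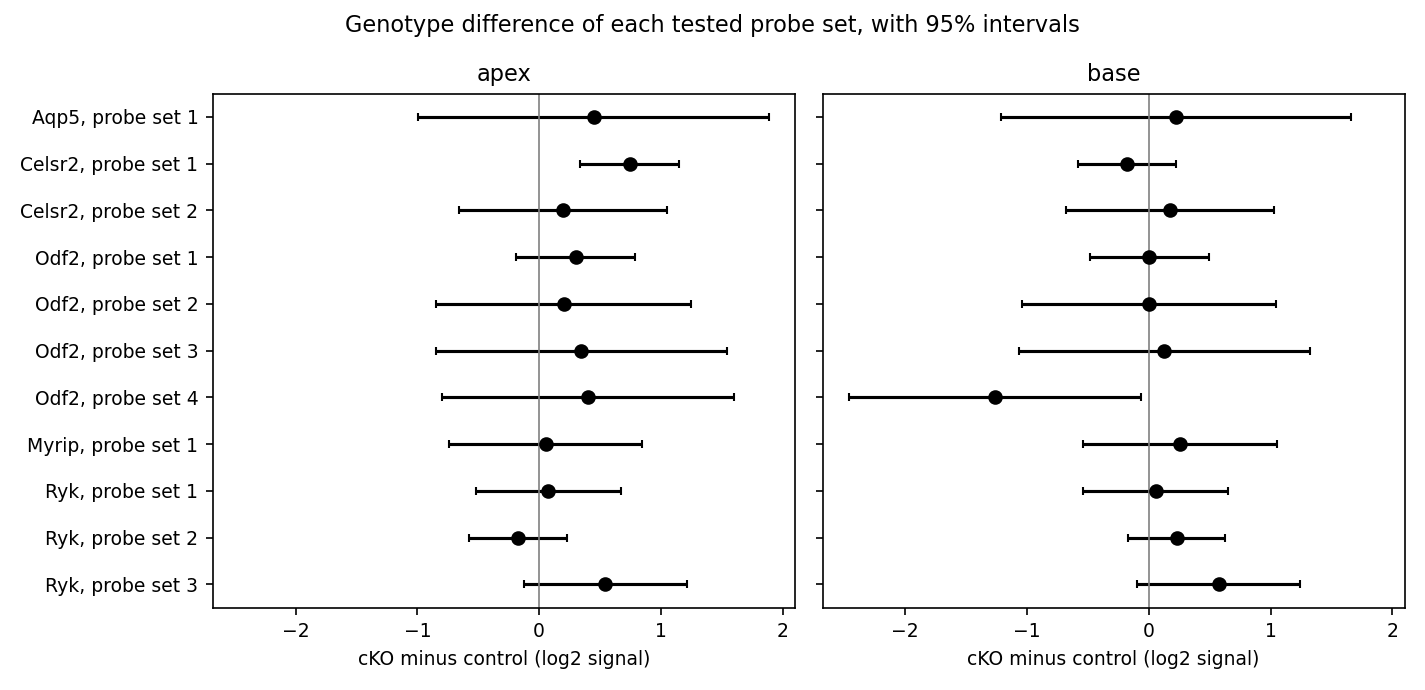
Difference cKO minus control (x axis, log2, with 95% intervals from limma) in the apex and in the base for the tested probe sets of the 5 genes (y axis, brightest first within a gene). The interval excludes 0 for the first Celsr2 probe set in the apex and for the fourth Odf2 probe set in the base, where it includes 0 if no filter is set, and includes 0 elsewhere.

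Over the probe sets, both cKO samples lay above both controls in the apex for 4 of 11 tested member probe sets, against 13.3% of all, and in the base for 2 of 11, against 12.7%. They lay below both controls for 1 of 11 in the apex, against 17.6% of all, and for 2 of 11 in the base, against 16.2%. Opposite directions in apex and base with no overlap in either occurred in the first Celsr2, the second Ryk and the fourth Odf2 probe sets, 3 of 11, against 2.19% of all. These probe sets share genes and samples, so the counts are descriptions.

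Of 12 centriole appendage genes beside Odf2, 11 were tested and none had an unadjusted p under 0.05 in either region. In the apex 4 were above 0 and 7 below (median -0.14), and in the base 5 and 6 (median -0.01). Odf2l, an Odf2 relative, was at -0.67 ± 0.41 and -0.89 ± 0.41, opposite in sign to the first Odf2 probe set in the apex. Sclt1, a distal appendage protein, was at -0.33 ± 0.28 and -0.53 ± 0.28. Ccdc120, a subdistal appendage protein, was at 0.31 ± 0.23 and 0.45 ± 0.23.

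Aqp5 (Entrez 11830, chr15:99591028-99594829) encodes a water channel found in outer sulcus cells of the cochlear wall. Its single probe set (1418818_at) was the dimmest of those used for the 5 genes, at 61.5 and 61.3 in the control apex, 53.9 and 129.8 in the cKO apex, 46.8 and 140.01 in the control base and 119 and 74.7 in the cKO base. The 2 apical controls were nearly equal, whereas replicates of the other 3 groups differed widely, and the genotypes overlapped in both regions. Group means were 5.94 ± 0.0033 in the control apex, 6.34 ± 1.12 in the control base, 6.39 ± 0.90 in the cKO apex and 6.56 ± 0.48 in the cKO base (log2, SD). By limma the difference was 0.45 ± 0.62 in the apex (unadjusted p = 0.493) and 0.22 ± 0.62 in the base (unadjusted p = 0.73), with intervals from 0.50-fold to 3.72-fold and from 0.427-fold to 3.18-fold. Without cKO apex replicate 2 the apical value was -0.19, and without control base replicate 1 the basal value was -0.57. Aqp5 spanned 2.99-fold over the 8 samples, more than 84.7% of tested genes.

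The summed signal of outer sulcus and root cell markers, 5 of 5 measured, was 32263 and 28502 in the control apex, 34312 and 35514 in the cKO apex, 25092 and 50119 in the control base and 39292 and 38153 in the cKO base. Control base replicate 1 was lowest and replicate 2 highest, as for Aqp5, and the part of this tissue in the Aqp5 values was not tested. Of 9 other aquaporins, 6 were tested and none had an unadjusted p under 0.05. In the apex 3 were above 0 and 3 below (median -0.03), and in the base 4 and 2 (median 0.13). Aqp11, a channel of intracellular membranes, was at 0.63 ± 0.35 in the apex and -0.42 ± 0.35 in the base. Aqp6, another intracellular channel, was at -0.34 ± 0.44 and 0.59 ± 0.44, and Aqp8 at 0.11 ± 0.48 and 0.45 ± 0.48.

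Taking the brightest probe sets of the 5 genes side by side, the apical values of all 5 were above 0 with a median of 0.30. Of all tested genes 50.1% were above 0, with a median of 0.0008. The second Ryk probe set was at -0.17 in the apex. Leaving out 1 apical sample turned the apical value to -0.19 for Aqp5, -0.19 for Myrip and -0.14 for Ryk. All 5 genes were read on the same samples, so their signs are not independent. In the base 4 of 5 were above 0 with a median of 0.06, beside 49.8% of all genes. Apex and base of a presumed mouse share an animal, so the regions are not independent. Over both regions 5 of 5 were above 0 with a median of 0.16, beside 49.7% of all genes, and the single values were 0.33 ± 0.36 for Aqp5, 0.28 ± 0.15 for Celsr2, 0.16 ± 0.27 for Myrip, 0.15 ± 0.16 for Odf2 and 0.07 ± 0.21 for Ryk. For each of the 5 the interval over both regions included 0 change.

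**Figure D4:**
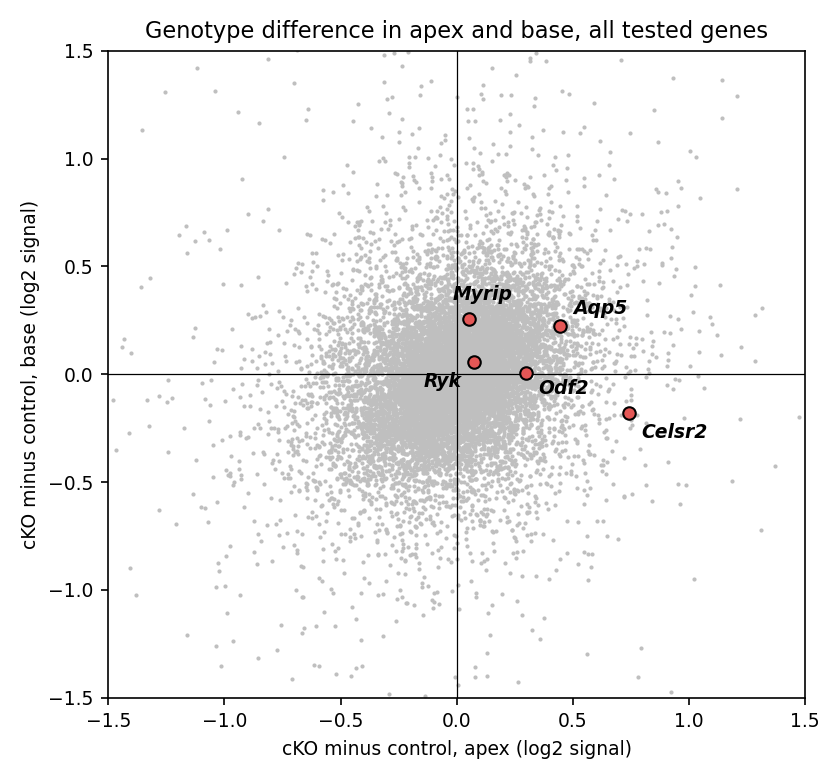
Difference cKO minus control in the apex (x axis, log2) against the difference in the base (y axis, log2) for all 13221 tested genes in grey and the 5 reported miR-96 targets named, with 115 genes outside the axes of ±1.5. Celsr2 lies at 0.74 and -0.18, and the other 4 lie closer to the centre with both values at or above 0.

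Of other reported targets of the miR-183 family, 19 of 19 were tested, with 12 above 0 and 7 below in the apex (median 0.04, range -0.31 to 0.34) and 13 above and 6 below in the base (median 0.09, range -0.43 to 0.98). None had an unadjusted p under 0.05 in either region. Egr1, an immediate early transcription factor, was at 0.04 ± 0.46 in the apex and 0.98 ± 0.46 in the base. Clock, a circadian transcription factor reported as a target of the cluster, was at 0.23 ± 0.18 and 0.33 ± 0.18. Bmi1, a Polycomb protein, was at -0.26 ± 0.15 and 0.07 ± 0.15.

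Among 12 genes of microRNA processing and silencing, 12 were tested, with 8 above 0 and 4 below in the apex (median 0.12) and 7 and 5 in the base (median 0.16). Ago3, one of the Argonautes that carry microRNAs, was the only one of the 12 with an unadjusted p under 0.05 in either region, at 0.30 ± 0.22 in the apex and 0.78 ± 0.22 in the base (limma, unadjusted p = 0.00939, adjusted p = 1). Its log2 signals of 7.68 and 7.57 in the control base were below 8.33 and 8.47 in the cKO base. Dgcr8, the partner of Drosha in the nucleus, was at 0.42 ± 0.18 and 0.32 ± 0.18, and Drosha at -0.52 ± 0.30 and -0.12 ± 0.30.

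Hair cells are the cells at which the deletion by Atoh1-Cre was aimed, and miR-96 is abundant in them. Of 16 hair cell markers, 12 were measured, and their summed signal was 8226 to 9905 in the control apex and 9160 to 10235 in the cKO apex, which overlap. In the base it was 5532 to 6201 in controls and 4810 to 5331 in cKO, with no overlap. Of the 11 hair cell markers tested in the base, 7 were below 0 and 4 above (median -0.55). An unadjusted p under 0.05 was reached by 4 of those below and 1 of those above, against 3.12% of all genes. None passed the threshold after adjustment. Apical values of the 11 were above 0 for 6 and below for 5 (median 0.08), none with an unadjusted p under 0.05. Cabp2, a calcium sensor of the hair cell synapse, was at -0.14 ± 0.30 in the apex and -1.49 ± 0.30 in the base (unadjusted p = 0.00134). Otof, the calcium sensor of vesicle release, was at -0.61 ± 0.32 and -1.35 ± 0.32, and Smpx at -0.10 ± 0.24 and -1.01 ± 0.24. Among the 4 above 0 in the base, Calb1 was at 0.93 ± 0.57 in the apex and 1.37 ± 0.57 in the base (limma, unadjusted p = 0.0439). Espn was at 0.55 ± 0.57 and 0.91 ± 0.57. The part of hair cell number in the members' values was not tested.

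Of 5 hair cell genes reported as lower in mice with a changed miR-96 seed, 2 were measured and 1, Gfi1, was tested. Gfi1, a transcription factor of hair cell survival, was at 0.23 ± 0.31 in the apex and -0.55 ± 0.31 in the base.

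**Figure D5:**
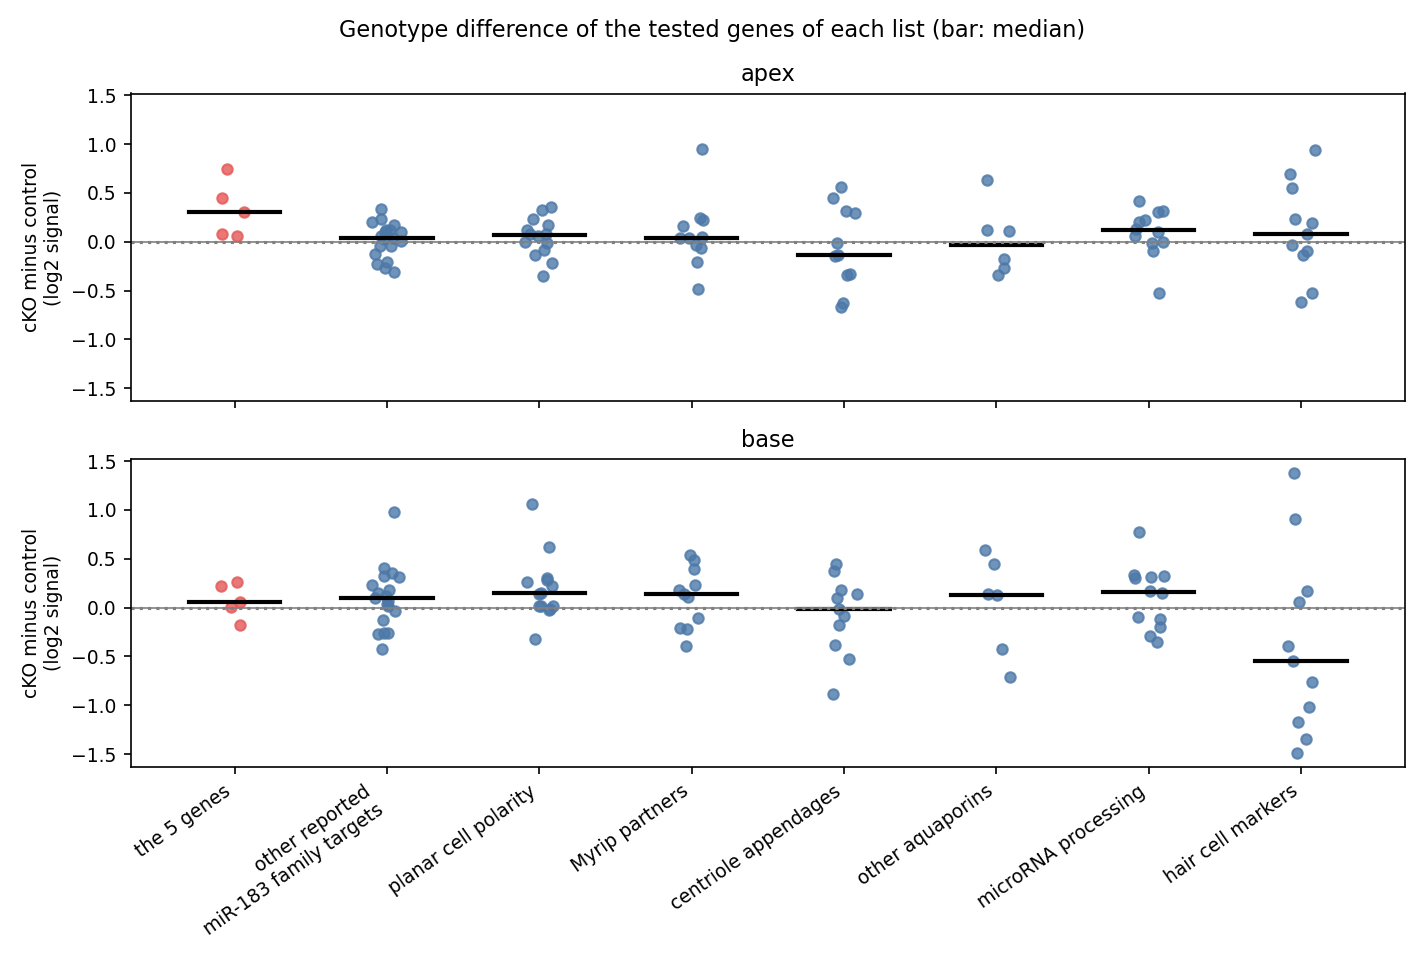
Differences cKO minus control (y axis, log2) in the apex and in the base for the 5 reported targets, the other targets, the partner lists and the hair cell markers, one point per gene with the list median as a bar. The medians of the 5 genes are 0.30 in the apex and 0.06 in the base. Those of the 19 other reported miR-183 family targets are 0.04 and 0.09, and those of the hair cell markers are 0.08 and -0.55.

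The summed signals of other tissues also separated the genotypes. In the apex, the cKO samples were above the controls without overlap for the myelin and Schwann cell list (59183 to 63268 against 50588 to 56057) and for the outer sulcus list. In the base they were above them for the marrow and blood list (5350.5 to 5595 against 1523 to 2632) and the bone list (16645 to 17947 against 10568 to 14573). All 8 tested marrow genes were above 0 in the base with an unadjusted p under 0.05 (median 1.71), among them Gata1, an erythroid transcription factor, at 1.79 ± 0.32 and Prtn3, a neutrophil protease, at 1.62 ± 0.36. The genotypes overlapped in the summed signal of the stria list, whose 9 tested genes had a median of -0.66 in the apex and 1.77 in the base. In the base that sum was 17495 in control replicate 1, against 44281 in control replicate 2 and 39441 to 44920 in cKO, so the basal median rests on 1 control library. In the apex the sum was 23543 in control replicate 1, against 17046 in control replicate 2 and 17906 to 18435 in cKO. The apical median likewise rests on 1 control library. In the base, supporting cell markers had a median of -0.19 and neuron markers one of 0.24. How far these tissues enter the values of the 5 genes was not tested.

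For differences between regions, as for the difference of effects, the model did not pair apex and base of a presumed mouse. Celsr2 was the one member with an unadjusted p under 0.05 between regions in controls. On its brightest probe set it was 1.56-fold higher in the control base than in the control apex (0.64 ± 0.17, log2 and SE; unadjusted p = 0.00604, adjusted p = 0.498, limma), and 7.52% of all genes had an unadjusted p under 0.05 there. The second Celsr2 probe set gave 0.11 ± 0.37 for the same difference (limma, unadjusted p = 0.767). In cKO the same difference was -0.28 ± 0.17 by the brightest probe set (limma, unadjusted p = 0.142) and 0.10 ± 0.37 by the second, and no member had an unadjusted p under 0.05, against 11.3% of all genes. After adjustment 0% of all genes passed in controls and 0.0832% in cKO, with none of the 5 among them.

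For Ryk the base minus apex value was 0.39 ± 0.26 in controls (limma, unadjusted p = 0.169) and 0.37 ± 0.26 in cKO by its brightest probe set. The control value was 0.057 without control base replicate 2 and 0.72 without control base replicate 1. Its second probe set gave 0.16 ± 0.17 and 0.56 ± 0.17 (cKO, unadjusted p = 0.0126, adjusted p = 0.329). Myrip was at 0.19 ± 0.34 and 0.39 ± 0.34, Odf2 at 0.09 ± 0.21 and -0.20 ± 0.21, and Aqp5 at 0.40 ± 0.62 and 0.17 ± 0.62. In controls, the sign turned on 1 library for 3 of these: without control base replicate 2 Aqp5 became -0.39 and Odf2 -0.038, and without control base replicate 1 Myrip became -0.31. In cKO, Aqp5 became -0.46 without cKO apex replicate 1.

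Pearson correlations between them, as descriptions over 8 arrays that share 4 presumed mice, ran from -0.31 for Myrip with Ryk to 0.56 for Celsr2 with Odf2. The 3 tested genes closest to each member were different ones for each. Celsr2 was nearest to Cog5 (r = 0.94), Itpk1 (0.93) and Unc50 (0.92), and Ryk to Gramd3 (0.99), Map2k2 (0.99) and Vhl (0.98). Myrip was nearest to Corin (0.96), Prkacb (0.95) and Ankrd40 (0.94), Odf2 to Serbp1 (0.95), Fbp2 (0.94) and Hcfc1r1 (0.94), and Aqp5 to Wdr83 (0.97), Vrk3 (0.96) and Fancd2 (0.94).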

How the data were processed

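Total RNA (75 to 125 ng, mirVana kit) was amplified in 2 cycles and labelled with biotin, per the labels' protocols. The values deposited by the authors are a linear intensity per probe set, scaled on each array to a trimmed mean of 500 (2% off each end). The submitters' processing notes name MAS5 and affy 1.26. No source used here names the scanner settings or gives detection calls. Of 45101 probe sets, 64 were array controls, 34945 had 1 gene in the supplied platform annotation, 932 several and 9160 none, and 34741 were matched by Entrez identifier to RefSeq.

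From the deposited intensities, log2 values were taken with no pseudocount and no further normalization. A gene was read from its probe set of highest mean, and those with a mean log2 below the 40th percentile (signal 38.7) were left out. A model of 4 group means (4 residual degrees of freedom) was fitted with limma 3.58.1 under R 4.3.3, with intensity trend, two-sided tests and Benjamini-Hochberg adjustment over 13221 genes. The effect over both regions used the mean of each presumed mouse. In the model of 4 group means, the spread was pooled over the groups. In each fit it was drawn toward that of all tested genes (prior degrees of freedom 3.46, or 3.1 over both regions). Since groups hold 2 samples, p-values measure only this moderated spread between samples. The procedure was tested on simulated data.

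Named were the 5 genes, Dicer1, the 3 genes nearest each member by correlation and up to 3 genes of smallest p from each list. Further probe sets and single context genes such as Tectb, Xist, Dct, Celsr1, Celsr3, Scrib, Calb1 and Espn were chosen after values were seen. The members and lists were chosen with earlier results of these data known. Deviations from the group mean of apex and base samples with equal numbers correlated at r = 0.34 in controls and 0.07 in cKO. Between genotypes the replicate number is only shared, and the same correlation was -0.03 in the apex and 0.18 in the base. The cKO value was thus below one between different mice, so the pairing in cKO remains presumed. Alternatives changed the filter, pseudocount (16), normalization, choice of probe set, variance model, samples in the fit, block and threshold (0.1), or left out each sample.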

Additional observations from a re-analysis of the deposited data

Results flagged for a closer look

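3 probe sets of the 5 genes had both cKO samples on one side of the controls in the apex and on the other side in the base. For the brightest Celsr2 probe set the cKO effect in the base minus that in the apex was -0.92 (log2), for the fourth Odf2 probe set it was -1.66, and for the second Ryk probe set it was 0.40. The difference itself was tested with limma and had an adjusted p of 1 for each. The second Celsr2 probe set gave -0.02 and the brightest Ryk probe set -0.02 for the same difference. No outlier test was made, since groups held 2 samples.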

How the results depend on the processing

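None of the 5 genes passed the threshold under those of the 13 alternatives that gave it a value, or without any of the 8 samples. Aqp5 has no value under the 60th percentile filter, and the effect over both regions has none with a random block, nor, like the difference of effects, with the compared groups alone, since both use all groups. Of the values obtained, 568 of 609 kept the direction and side of the threshold. Many of these could not change direction. The variance model, block and threshold leave the difference itself as it is, as does leaving out a sample of a group not compared. For Aqp5 and Myrip, with a single probe set, the second probe set is the first. Of 30 member results, 17 changed sign when a sample was left out and 6 under another alternative. Read from the second probe set, the cKO effect was -0.17 for Ryk in the apex and 0.18 for Celsr2 in the base, the difference of effects was 0.40 for Ryk, and base minus apex was -0.55 for Odf2 in controls and 0.10 for Celsr2 in cKO. With the mean of probe sets, Odf2 was at -0.18 for the cKO effect in the base and -0.23 for base minus apex in controls, and the Ryk difference of effects was 0.14. The cause was not tested.

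Leaving out each sample in turn gave these ranges where the sign turned. In the apex the cKO effect ran from -0.19 to 1.08 for Aqp5, from -0.19 to 0.30 for Myrip and from -0.14 to 0.29 for Ryk. In the base it ran from -0.57 to 1.01 for Aqp5, from -0.13 to 0.13 for Odf2, from -0.24 to 0.75 for Myrip and from -0.27 to 0.39 for Ryk. Over both regions, leaving out a sample removed its whole presumed mouse, since that effect uses the mean of each mouse. There the cKO effect ran from -0.060 to 0.73 for Aqp5, from -0.22 to 0.53 for Myrip and from -0.21 to 0.34 for Ryk. The difference of effects ran from -1.02 to 0.57 for Aqp5, from -0.30 to 0.70 for Myrip and from -0.35 to 0.32 for Ryk. Base minus apex in controls ran from -0.39 to 1.19 for Aqp5, from -0.038 to 0.22 for Odf2 and from -0.31 to 0.69 for Myrip, and in cKO from -0.46 to 0.81 for Aqp5. The apical effect of Celsr2 ran from 0.66 to 0.83.

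Every group held replicates 1 and 2, so the replicate block could not change a difference of group means, only its p-value. With it, the apical Celsr2 difference of 0.74 had an adjusted p of 1 (limma). The Celsr2 difference of 0.64 for base minus apex in controls had an adjusted p of 0.357 (limma). The block changed no member's call, and between genotypes the number is only shared. Among all genes, calls for base minus apex in cKO went from 11 to 0 with the replicate block, quantile normalization, centring, no filter, no intensity trend or every probe set, to 6 with the mean of probe sets, 51 at a threshold of 0.1, 81 with a random block, 449 with the compared groups alone, and 315 or 316 without control base replicate 1 or 2. Without control base replicate 1, 551 genes were called for base minus apex in controls, and without replicate 2, 37 for the cKO effect in the base, against 0. With no intensity trend, 1 gene was called for the cKO effect in the apex and 1 in the base.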
